A study of Mus musculus with 7 samples.

Results

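Mouse embryonic fibroblasts (MEFs) labelled Utx knockout (KO) were compared with MEFs labelled wild type (WT), both without doxycycline (DOX). The pair was chosen by the deposited sample titles and makes up 2 of the 7 samples of the series, each hybridised to 1 Affymetrix array. The WT cells were Utx +/Y and the KO cells Utx -/Y. Both were V19-OSKM MEFs, cells in which DOX switches on the 4 reprogramming factors Oct4 (gene Pou5f1), Sox2, Klf4 and Myc, and neither was labelled as induced. The other 5 arrays held V6.5 embryonic stem cells (ESCs) of both genotypes, V19-OSKM MEFs of both genotypes with DOX, and Nanog -/- fibroblasts transduced with an OSKM lentivirus. A single ESC medium, N2B27 with 2i and LIF, is given by the labels for all samples, fibroblasts included. How many embryos or clones stand behind each MEF sample, and at what age, is not stated in the labels. With 1 array per condition no difference has a replicate check, and no p-value is given.

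Utx, encoded by the X-linked gene Kdm6a, is a demethylase acting on lysine 27 of histone H3. The methyl mark there is laid down by Polycomb repressive complex 2 and is associated with silent developmental genes. Cultures of MEFs are prepared from minced embryos, so they are mixtures in which fibroblasts dominate and smooth muscle-like cells, macrophages and other embryonic cells can persist. When reprogramming factors act on such cells, mesenchymal genes are known to fall and epithelial genes to rise before the stem cell genes appear. Because these are bulk RNA samples, fewer cells of a type and less RNA per cell cannot be told apart.

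Kdm6a, the targeted gene, read 8.22 on the WT array and 6.32 on the array labelled KO, a log2 difference of -1.90. On the other arrays it read 9.12 in WT ESCs, 7.97 in KO ESCs, 8.93 in WT MEFs with DOX, 7.57 in the KO-labelled MEFs with DOX and 9.08 in the Nanog -/- fibroblasts. The library labelled KO without DOX thus had the lowest Kdm6a value of the 7. Whether the probes of this row lie in the deleted part of the gene is not stated in the labels. Kdm6b, which encodes the other lysine 27 demethylase, read 8.78 in WT and 9.30 in the KO-labelled library. The Y-linked relative Uty read 7.34 and 6.95, and Eif2s3y, a Y-linked translation factor gene, read 8.28 and 4.46. The Eif2s3y value of the KO-labelled library was near the 4.19 of KO ESCs and goes against a label with a Y chromosome. Eif2s3y read 5.42 in the KO-labelled DOX library. Of the other Y-linked genes, Kdm5d read 6.93 in WT and 5.49 in the KO-labelled library, and Sry 6.44 and 6.78. The Uty value of the KO-labelled library was not near the 3.68 of KO ESCs. In this pair Uty, Kdm5d and Sry were not above 7.34, the floor used below for low values. Xist, a noncoding RNA that coats the silenced X, was at 11.06 in WT and 9.87 in the KO-labelled library. It was at 10.90 and 10.98 in the MEFs with DOX. Such high values in MEFs go against labels with a single X chromosome. In ESCs Xist was lower, at 8.10 in WT and under the floor in KO, so the ESC values are not part of this point.

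Pou5f1 went against the label of the KO library. It read 8.19 in WT MEFs without DOX and 11.26 in the library labelled KO without DOX, beside 12.59 in WT MEFs with DOX and 5.12 in the KO-labelled MEFs with DOX. By its Pou5f1 value the KO-labelled library without DOX was thus nearer to the induced WT array and to the ESCs, at 12.14 and 12.32, than to the uninduced WT array, and the KO-labelled library with DOX was the lowest of the MEF arrays. The other factor genes were within 2-fold, with Klf4 higher by 0.73, Sox2 low in both at 5.18 in WT and 5.47 in the KO-labelled library, and Myc at 10.99 and 10.78. Over all rows of the table, the WT array without DOX correlated at r = 0.972 with the KO-labelled DOX library and at r = 0.921 with its own counterpart, the KO-labelled library without DOX. The latter correlated at r = 0.945 with the KO-labelled DOX library, at r = 0.908 with the Nanog -/- fibroblasts and at r = 0.864 with the induced WT array. Over all rows the KO-labelled library without DOX was thus nearest to the KO-labelled DOX library, which is labelled as induced. It was nearer to the uninduced than to the induced WT array. The labels are used as deposited, and the main list values are followed by those with the KO-labelled DOX library put in place of the one without DOX. That second comparison shares the WT array with the first.

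Both libraries carried the defining fibroblast markers. Col1a1, a fibrillar collagen gene, read 12.86 in WT and 12.34 in the KO-labelled library, and the intermediate filament gene Vim read 13.14 and 13.09. Pdgfra, a growth factor receptor gene of fibroblasts, read 10.22 and 10.41, and Thy1 read 11.84 and 11.54. On the induced WT array the same genes were lower, with Pdgfra at 5.69 and Col1a1 at 8.49. Of the defining pluripotency markers, Zfp42, Esrrb and Dppa5a were below 7.34, the floor set for low values, in the KO-labelled library (Esrrb at 5.41 and Dppa5a at 6.14), while Nanog read 7.82. The KO-labelled library therefore held these defining fibroblast markers within 2-fold of WT together with a high Pou5f1 value. The longer lists described below did differ in part. Lower in the KO-labelled library were 7 of the 31 fibroblast identity genes counted and 22 of the 61 mesenchymal matrix genes counted. In each of these lists 1 gene was higher.

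In all, 466 genes were 2-fold or more higher and 882 were 2-fold or more lower in the library labelled KO. Genes entered the count when their higher value exceeded the floor, which is the 40th percentile of all values in the table. With 9253 genes counted, these make 5.04% and 9.53%, the background shares for the counts of list members below. By the deposited values, 26 genes were 8-fold or more higher and 53 were 8-fold or more lower. The smaller value was under the floor for 233 of the 466 higher and 437 of the 882 lower genes. Folds of such genes are uncertain. The median difference was -0.11 over the genes counted and 0.25 over the 4309 genes below the floor on both arrays, whereas the latter median was between -0.04 and -0.02 in the other pairs of arrays. The array median of the KO-labelled library was 7.68 against 7.81 for WT. When array medians were aligned the median difference became 0.04 and the counts 677 and 685, so that 49.7% of the genes past 2-fold were higher, against 34.6% as deposited, and with quantile normalization the counts were 651 and 721 (47.4% higher). The excess of lower over higher genes thus rests on the deposited scaling.

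**Figure D1:**
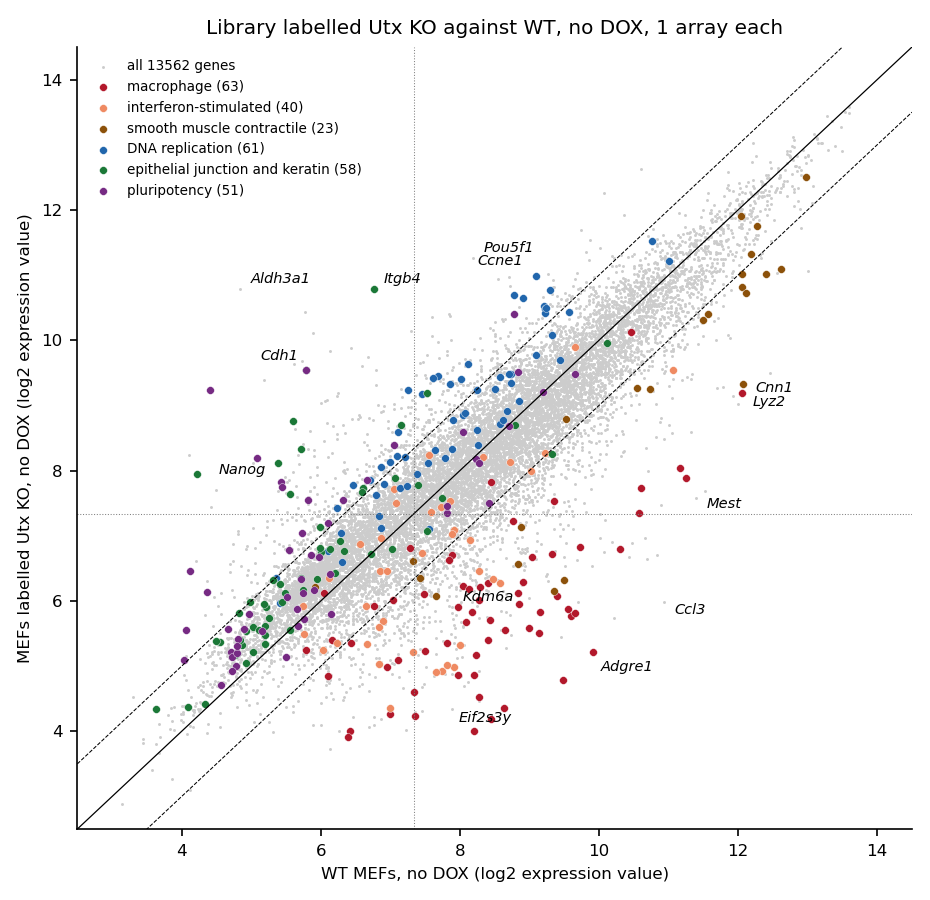
Log2 expression value in the library labelled Utx KO (vertical axis) against WT MEFs (horizontal axis), both without DOX, with 1 point per gene for 13562 genes and members of 6 gene lists in colour. The solid line marks equal values, the dashed lines a 2-fold difference and the dotted lines the floor of 7.34, and the macrophage genes lie mostly below the lower dashed line while all but 1 of the DNA replication genes lie above the solid line.

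Macrophage genes made up the largest block of lower genes among the lists. Of 63 measured members of the macrophage list, 48 were 2-fold or more lower and 0 were higher in the library labelled KO, where the background share of lower genes is 9.53%. Its median level was 8.29 against 5.83, and 50 members were above the floor in WT against 8 in the KO-labelled library. The median difference was -2.62. Adgre1, the gene of the macrophage surface antigen F4/80, read 9.91 in WT and 5.21 in the KO-labelled library, at least 5.95-fold lower. Csf1r, the receptor for the growth factor that macrophages depend on, read 9.15 and 5.83. Tyrobp, a signalling adaptor of myeloid cells, read 10.30 and 6.79. Lyz2, a lysozyme gene of myeloid cells, read 12.06 and 9.19 and so stayed above the floor in both. Ptprc, the gene of the pan-leukocyte antigen CD45, read 5.24 in the KO-labelled library and differed by -2.26. Every defining macrophage marker was thus lower, but Lyz2 and Cd68, at 10.60 and 7.73, were still measurable in the KO-labelled library.

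Many members were under the floor in the KO-labelled library, where their values have no order. Lilr4b, an inhibitory receptor gene, was at least 4.42-fold lower and Ms4a6c at least 2.46-fold, and the lectin receptor genes Clec4e and Clec4a1 were at least 2.16-fold and 1.81-fold lower. C1qb, measured above the floor on both arrays, was 10.3-fold lower. Only Emilin2, at 8.45 and 7.83, and Laptm5, at 10.46 and 10.12, were above the floor and within 2-fold. With the KO-labelled DOX library in place, 47 members were lower, against a background of 2.63% lower, and the median difference was -1.74. In the DOX pair the list median was 1.37, with 12 members higher and 1 lower against backgrounds of 14.3% and 12.1%. In the ESC pair, where 4 members were above the floor, it was -0.06. A lower macrophage signal was therefore seen in both KO-labelled MEF libraries relative to the single WT array without DOX.

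**Figure D2:**
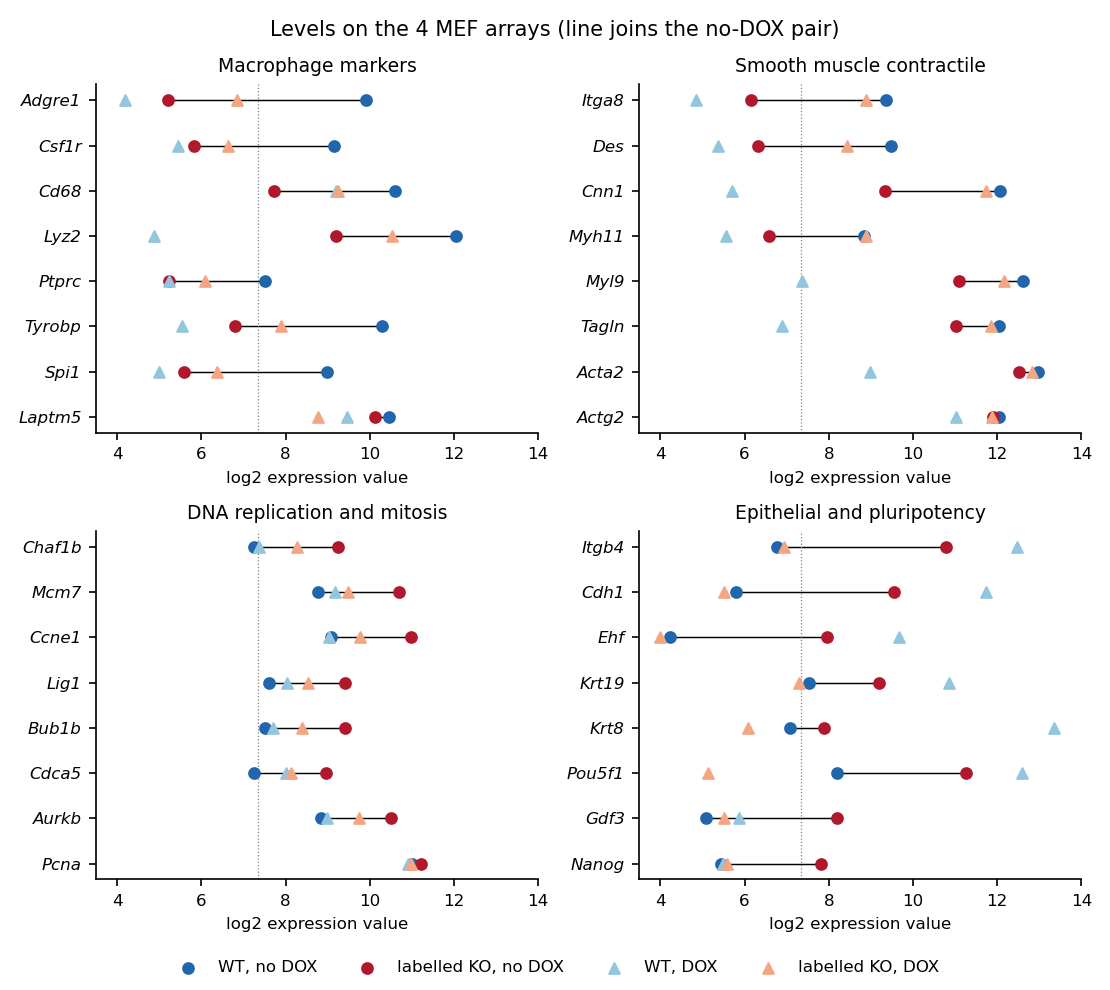
Log2 expression value (horizontal axis) of 32 genes in 4 panels on the 4 MEF arrays, with circles for the arrays without DOX, triangles for the arrays with DOX, blue shades for WT and red shades for the libraries labelled KO. A line joins the pair without DOX and the dotted line is the floor of 7.34, and for most macrophage and smooth muscle genes shown the library labelled KO with DOX lies between the ends of that line.

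Chemokine, cytokine and complement genes were lower along with the macrophage genes. Of 24 measured chemokine genes, 15 were lower and 0 higher, with a median difference of -1.53. Ccl3, a chemoattractant for monocytes, read 10.93 in WT and 5.99, under the floor, in the KO-labelled library. Ccl5 read 10.69 and 6.64, and Ccl2, which fibroblasts also secrete, differed by -2.98 and still read 9.02. Cxcl14 at 10.78 and 10.56 and Ppbp at 9.15 and 9.61 were near equal. Of 24 measured cytokine and receptor genes, 9 were lower and 0 higher, with a median of -0.78. Il6, an inflammatory cytokine gene, read 7.88 and 4.34, and Tnf read 7.68 and 6.19. Of 15 complement genes 7 were lower, among them C1qb at 11.25 and 7.88 and the receptor gene C3ar1 at 10.43 and 6.67, whereas Masp1 read 9.25 and 9.13. The complement list shares 3 genes with the macrophage list and 2, C3ar1 and C5ar1, with the cytokine list, so these counts overlap. The KO-labelled DOX library gave 16 lower and 2 higher chemokine genes, 5 lower cytokine genes with a median of -0.39, and 6 lower complement genes. Macrophages are known to express many of these genes, and the part of the macrophage signal in these differences was not tested.

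Lysosomal genes, also abundant in macrophages, differed little. Of 32 measured members 2 were lower and 0 higher, with a median of -0.32. The 2 lower members were the cathepsin genes Ctsh, at 8.67 and 6.66, and Ctsk, at 8.44 and 6.88. Among 13 antigen presentation genes only H2-DMa was past 2-fold with a value above the floor, at 7.87 and 6.24, while Cd74 at 6.99 and 5.09 was below it on both arrays, and the class I light chain gene B2m read 12.71 and 12.22. Of the lists for other blood cells, 0 of 2 lymphocyte genes and 0 of 3 erythroid genes on the array were above the floor, and of 3 neutrophil and mast cell genes 1 was, Mmp9, lower at 7.95 and 6.22.

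Interferon-stimulated genes, which encode antiviral proteins, were lower in part. Of 40 measured members 11 were lower and 0 higher, and the median difference was -0.84. Ifit3 read 7.91 in WT and 4.99 in the KO-labelled library, and Ifit1 read 7.74 and 4.92, both genes of RNA-binding antiviral proteins. Trim30a read 7.82 and 5.02, Rtp4 read 7.65 and 4.91, and Ifi205 differed by -2.69. These 5 genes were close to the floor in WT, so the differences are at least 1.24-fold to 1.58-fold when the lower side is set to the floor. Tap1, a peptide transporter gene, differed the other way within 2-fold, at 7.56 and 8.24. The list median was -0.30 with the KO-labelled DOX library in place, where 5 members were lower and Ifit3 read 6.80 and Ifi205 7.81.

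The promoters of Ifit3 and Ifit1 are shown because both carry repeated copies of the core of the interferon-stimulated response element (ISRE). RefSeq windows of 300 bases were searched on both strands, 250 before and 50 after each start site, on build GRCm38.p6. Ifit3 lies on the plus strand at chr19:34583279-34583578 and Ifit1 on the plus strand at chr19:34640639-34640938, and capitals mark the motif, here as its reverse complement.
Ifit3: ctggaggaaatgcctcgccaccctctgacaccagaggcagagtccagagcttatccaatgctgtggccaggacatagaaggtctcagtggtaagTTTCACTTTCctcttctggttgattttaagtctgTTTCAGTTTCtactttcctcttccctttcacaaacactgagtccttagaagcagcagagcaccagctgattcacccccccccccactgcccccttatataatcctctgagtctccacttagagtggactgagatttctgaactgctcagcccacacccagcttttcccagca
Ifit1: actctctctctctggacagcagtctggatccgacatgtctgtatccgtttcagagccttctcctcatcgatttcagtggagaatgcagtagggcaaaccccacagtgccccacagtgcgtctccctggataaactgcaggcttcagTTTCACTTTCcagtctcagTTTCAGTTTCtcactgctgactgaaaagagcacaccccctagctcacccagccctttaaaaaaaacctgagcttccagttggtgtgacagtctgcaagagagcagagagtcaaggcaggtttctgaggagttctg
Each window held 2 matches, the first starting at position -156 in Ifit3 and -104 in Ifit1 relative to the start site. The ISRE core was present in 13 of 40 windows of the list (32.5%) and in 3.44% of 32851 windows of all genes. Among the 11 members 2-fold lower, 9 had a window and 7 of those held the motif (8 of 10 windows). Such counts for the other lists searched are given with their motifs below.

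Smooth muscle contractile genes were mostly lower. Of 23 measured members, 16 were lower and 0 higher, and the list's median level was 11.49 against 9.33. The median difference was -1.22. Cnn1, the gene of the actin-binding protein calponin, read 12.07 and 9.33, a 6.67-fold difference with both values above the floor. Des, the muscle intermediate filament gene desmin, read 9.49 and 6.32, and Myh11, a smooth muscle myosin heavy chain gene, read 8.84 and 6.57. Itga8 read 9.36 and 6.16, at least 4.05-fold lower. In contrast the abundant actin genes Acta2, at 12.97 and 12.51, and Actg2, at 12.04 and 11.91, were within 2-fold. With the KO-labelled DOX library in place the list median was -0.23 and 1 member was lower, with Cnn1 at 11.73 and Myh11 at 8.88. In the DOX pair the median was 1.56.

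Extracellular matrix genes were lower in part. Of 63 measured members of the mesenchymal matrix list, 22 were lower and 1 higher, with a median of -0.62. Prg4, the gene of the joint lubricant lubricin, read 10.22 in WT and 5.74 in the KO-labelled library. Tnmd, a gene of tendon cells, read 10.89 and 7.48, a difference of -3.41. Aspn, a small proteoglycan gene, read 11.70 and 9.27, and Abi3bp read 11.05 and 8.58. Col15a1, a basement membrane collagen gene, was the single higher member at 7.76 and 9.40. With the KO-labelled DOX library in place the median was -0.06, and 4 members were lower and 2 higher. In that library Tnmd at 10.76, Aspn at 11.59 and Abi3bp at 11.09 were near their WT values, whereas Prg4, at 8.05, was still lower.

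Fibroblast transcription factor and surface genes were mostly within 2-fold. Of 34 measured members 7 were lower and 1 higher, with a median of -0.39. Foxc2, a mesenchymal forkhead factor gene, read 9.62 and 7.11. Twist2 read 10.17 and 8.46, while its relative Twist1 read 8.79 and 8.81. Zeb2, a repressor of epithelial genes, read 10.03 and 8.57. Cd34, a progenitor surface marker, was the higher member at 9.74 and 11.69. With array medians aligned 4 members in place of 7 were lower, and with the KO-labelled DOX library in place 0 were lower and 1 was higher.

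Proliferation genes gave the largest counts of higher genes among the lists. Of 61 measured DNA replication genes, 23 were higher and 0 lower, where the background share of higher genes is 5.04%, and the median difference was 0.82. Mcm7, a subunit of the replicative helicase, read 8.78 in WT and 10.70 in the KO-labelled library. Ccne1, the cyclin that drives entry into S phase, read 9.09 and 10.99. Chaf1b, a subunit of the histone chaperone that loads new nucleosomes, read 7.26 and 9.24. The ligase gene Lig1 read 7.61 and 9.42, and Cdt1, which licenses origins, read 7.69 and 9.45. Pcna, the sliding clamp gene, was near equal at 11.01 and 11.22, and Ccne2 was the only member above the floor with a lower value, at 7.56 and 7.10.

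Of 69 measured mitosis genes 19 were higher and 0 lower, with a median of 0.77, and 29 were higher after quantile normalization. Bub1b, a spindle checkpoint kinase gene, read 7.52 and 9.42. Cdca5, a regulator of sister chromatid cohesion, read 7.26 and 8.97, and the condensin subunit gene Ncapd2 read 8.65 and 10.32. Aurkb, the kinase of the chromosomal passenger complex, read 8.85 and 10.51. The kinetochore genes Knl1, at 7.98 and 7.89, and Cenpe, at 7.73 and 7.63, did not share this pattern. With the KO-labelled DOX library in place the medians were 0.51 for replication and 0.46 for mitosis, and 3 replication genes and 0 mitosis genes were 2-fold higher, against a background of 1.88%. Both medians were thus above 0 with either KO-labelled library. In the DOX pair they were 0.49 and 0.48, and in the ESC pair 0.15 and 0.20.

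The promoters of Mcm6 and Cdca5 are shown as examples of windows with the motifs searched for these lists. Mcm6, another helicase subunit gene, read 8.12 and 9.63 and lies on the minus strand at chr1:128359656-128359955, and capitals mark the E2F-type motif TTTGGCGC. Cdca5 lies on the plus strand at chr19:6084847-6085146, and capitals mark the motif TTTGAA known from cell cycle genes.
Mcm6: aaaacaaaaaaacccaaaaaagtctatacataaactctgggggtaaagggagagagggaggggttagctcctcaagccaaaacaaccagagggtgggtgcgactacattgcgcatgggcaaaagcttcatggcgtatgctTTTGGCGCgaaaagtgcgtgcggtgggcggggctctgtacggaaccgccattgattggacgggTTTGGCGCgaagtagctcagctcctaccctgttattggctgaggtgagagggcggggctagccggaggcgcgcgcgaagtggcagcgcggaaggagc
Cdca5: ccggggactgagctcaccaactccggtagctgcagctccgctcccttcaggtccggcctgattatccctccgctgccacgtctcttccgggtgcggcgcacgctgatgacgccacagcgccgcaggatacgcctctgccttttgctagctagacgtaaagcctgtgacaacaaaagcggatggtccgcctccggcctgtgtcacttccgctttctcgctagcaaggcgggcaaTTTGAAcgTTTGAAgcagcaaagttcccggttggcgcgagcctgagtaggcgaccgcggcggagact
Each of these windows held 2 matches. TTTCCCGC or TTTGGCGC was found in 18 of 60 replication windows (30.0%) and in 1.56% of all windows. TTTGAA was found in 43 of 65 mitosis windows (66.2%) and in 17.9% of all windows. For comparison, the motif GAGGAAGT, of the type bound by PU.1, was found in 7 of 56 macrophage windows (12.5%) and in 3.20% of all windows. A CArG box was found in 5 of 22 smooth muscle windows (22.7%) and in 1.63% of all windows. Among members 2-fold higher, the motifs were in 8 of 26 replication and 11 of 15 mitosis windows. Among members 2-fold lower, they were in 4 of 40 macrophage and 2 of 15 smooth muscle windows. These last 2 shares were below those of their whole lists, unlike the ISRE share.

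Epithelial genes were split between a few large differences and a majority below the floor. Of 58 measured members 19 were above the floor, 11 were higher and 1 was lower, and the median difference was 0.60 beside 0.25 for all genes below the floor. Itgb4, a hemidesmosome integrin gene, read 6.76 in WT and 10.79 in the KO-labelled library, at least 10.9-fold higher. Cdh1, the gene of E-cadherin, read 5.79 and 9.54. St14, an epithelial surface protease gene, read 5.60 and 8.76, and its inhibitor gene Spint1 read 5.38 and 8.11. Ehf, an epithelial transcription factor gene, read 4.22 and 7.95. The other defining epithelial markers differed less than Cdh1: Krt8 read 7.07 and 7.89, Krt18 read 7.03 and 6.79, and Epcam read 4.79 and 5.20. Cdh3, the gene of P-cadherin, was the lower member at 9.33 and 8.25. On the induced WT array Itgb4 read 12.48, Cdh1 11.74, St14 11.60 and Ehf 9.66, and with the KO-labelled DOX library in place the list median was -0.14, with Cdh1 at 5.52.

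Among pluripotency genes, too, a small set accounted for the counts. Of 51 measured members 20 were above the floor, 10 were higher and 0 lower, with a median of 0.55. The list shares 3 genes with the epithelial list. Apela, a peptide hormone gene of stem cells, read 4.41 in WT and 9.23 in the KO-labelled library. Gdf3, a TGF-beta family ligand gene, read 5.09 and 8.19, and L1td1 read 5.44 and 7.75. Nanog, a core stem cell factor, read 5.43 and 7.82, against 12.28 in WT ESCs. Gdf3 and Nanog were not high on the induced WT array, at 5.86 and 5.48, where Apela read 10.08. Tet1, at 9.19 and 9.20, was equal in the pair. The list median turned to -0.07 with the KO-labelled DOX library in place, and Nanog, at 5.59, and Gdf3, at 5.50, were below the floor.

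Genes of the lysine 27 methylation machinery were within 2-fold apart from the target. Of 29 measured members, 1 was past 2-fold, Kdm6a itself, and the median difference was 0.02. Ezh2, the methyltransferase of Polycomb repressive complex 2, read 9.60 in WT and 10.46 in the KO-labelled library. Its partner genes Eed, at 8.67 and 8.05, and Suz12, at 9.27 and 8.83, were slightly lower, and Cbx2, which reads the mark, was at 7.72 and 8.71. With array medians aligned the median was 0.16, and Cbx2 was past 2-fold higher. Of 19 other lysine demethylase genes 0 were past 2-fold, with a median of -0.12 that became 0.02 with array medians aligned.

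Hox genes, classical Polycomb targets, were in part lower. Of 27 measured members 11 were above the floor, 6 were lower and 0 higher, with a median of -0.51. Hoxc6 read 7.84 and 6.21, Hoxc8 read 8.66 and 7.09, and Hoxc5 read 7.57 and 6.09, and these 3 are neighbours in the HoxC cluster among measured genes. All 6 lower members were under the floor in the KO-labelled library. With the lower side set to the floor, the folds ran from 1.03 for Hoxa6 to 2.49 for Hoxc8, the only one past 2-fold. Hoxb3 at 8.31 and 8.56 and Hoxa4 at 7.46 and 7.74 were near equal. Aligned array medians left 4 lower and 1 higher. In the KO-labelled DOX library Hoxc6 read 6.49 and Hoxc8 7.51, between the values of this pair, and the list had 4 lower, 1 higher and a median of -0.09.

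Wnt modulators and imprinted genes held some of the widest single-gene differences. Of 25 Wnt antagonist and enhancer genes 7 were lower and 1 higher. Sfrp4, a secreted Wnt antagonist gene, read 11.52 in WT and 7.69 in the KO-labelled library, a 14.1-fold difference, while its relatives Sfrp1, at 11.44 and 11.63, and Sfrp2, at 11.84 and 11.77, were equal. Rspo2 read 8.99 and 6.04, and Rspo3 read 9.25 and 7.36, both genes of ligands that enhance Wnt signals, and their receptor gene Lgr5 read 9.55 and 8.02. The KO-labelled DOX library read 9.84 for Sfrp4 and 8.67 for Rspo2, nearer to WT, and 11.05 for Lgr5, above it, and with it 2 list members were lower and 2 higher. Among 21 imprinted genes of growth control 4 were lower and 1 higher, and aligned array medians gave 2 lower and 3 higher. Mest, expressed from the paternal allele, read 11.40 and 7.58, also 14.1-fold, with 10.29 in the KO-labelled DOX library, and Peg10 was the higher member at 10.36 and 11.92. Igf2, at 12.35 and 12.21, and Dlk1, at 11.74 and 11.62, were near equal. Zim1, Grb10 and Meg3 were the other lower members, with differences of -1.14, -1.07 and -1.02, and the KO-labelled DOX library gave 1 lower and 4 higher imprinted genes.

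Stress and metabolic genes gave mixed or flat patterns. Of 29 genes of the NRF2 and glutathione list 5 were higher and 3 lower, and with array medians aligned the median of -0.11 turned to 0.03 and 1 gene was lower. Aldh3a1, an aldehyde dehydrogenase gene, read 4.84, under the floor, in WT and 10.78 in the KO-labelled library, at least 10.9-fold higher, and it read 11.57 on the induced WT array and 4.72 in the KO-labelled DOX library. Gsta4, a glutathione transferase gene, read 7.84 and 10.40, while Gclc, an enzyme gene of glutathione synthesis, read 9.92 and 8.85. In the p53 and Ink4/Arf list, 2 of 23 were higher and 3 lower: Perp, a desmosome and p53 target gene, read 7.30 and 10.14, Cdkn2a read 7.01 and 8.31, and its neighbour Cdkn2b read 9.76 and 8.42. Of 20 glycolysis genes 3 were higher, led by the glucose transporter gene Slc2a3 at 7.82 and 9.83. Of 33 respiratory chain and 28 ribosomal protein genes 0 were past 2-fold, with medians of 0.13 and 0.06.

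**Figure D3:**
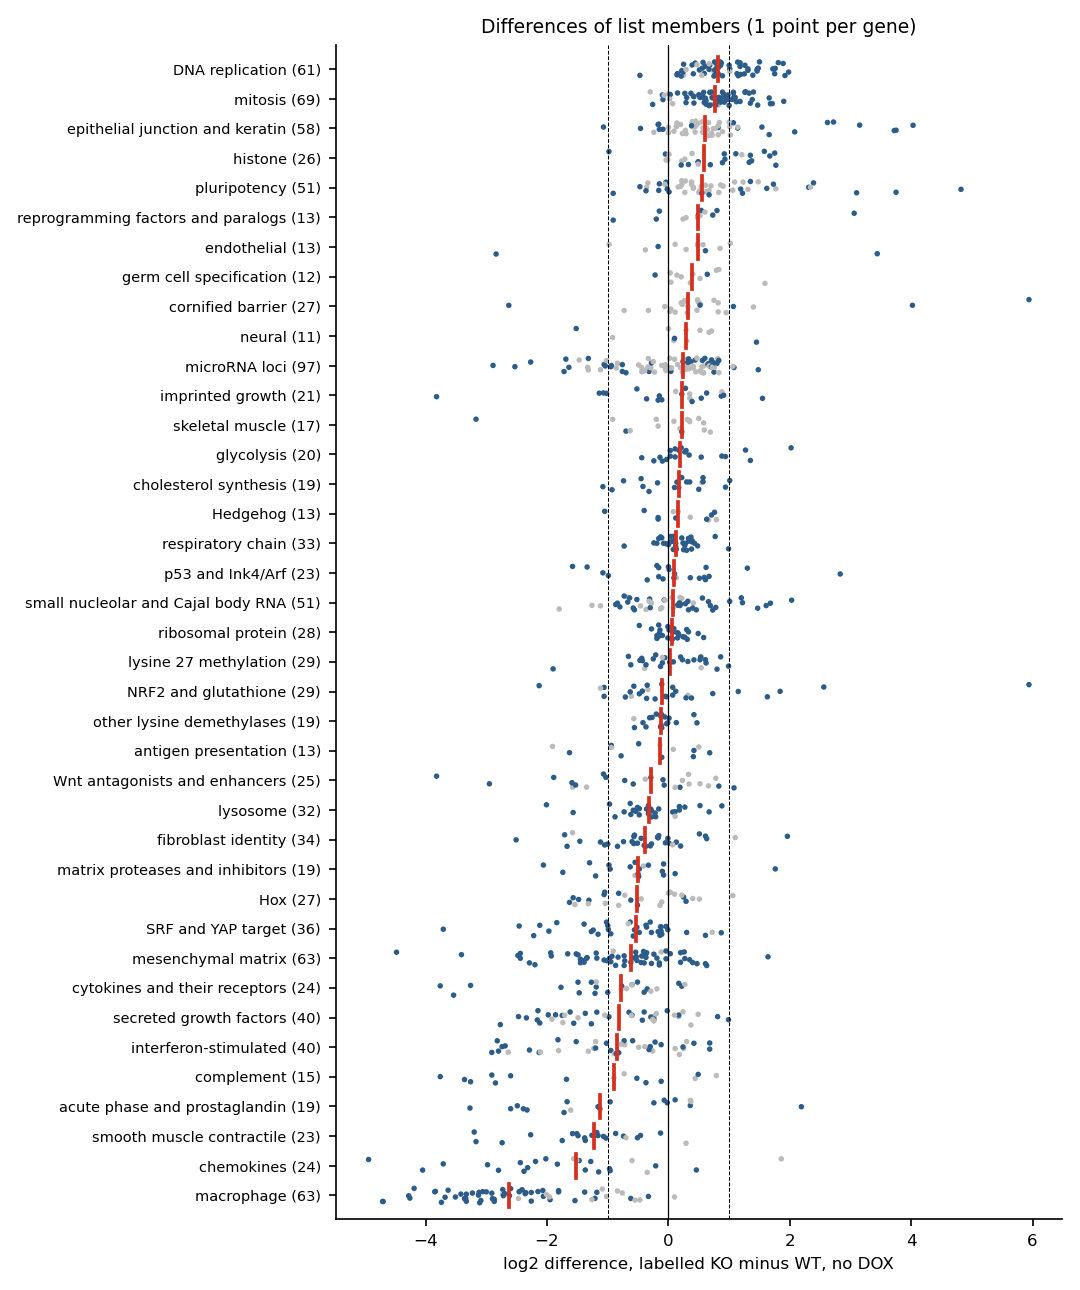
Log2 difference of the library labelled Utx KO minus WT, both without DOX (horizontal axis), for the measured members of each gene list with 10 or more members, 1 point per gene, with blue points above the floor on at least 1 array, grey points below it on both and a red bar at the list median. Dashed lines mark 2-fold; the macrophage median lies at -2.62 and the DNA replication median at 0.82, with ribosomal protein genes around 0.

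Transcripts of some microRNA loci were lower, and 1 mature sequence is shown for each of 3 loci. The names of these sequences carry no locus number, so a sequence need not come from the measured locus alone. The rows measure RNA of the locus, not the mature microRNA, and the set of loci was chosen after the values were seen. Of 97 measured loci 35 were above the floor, 9 were lower and 2 higher. Mir145a, at 8.03 in WT and 5.14 in the KO-labelled library, and Mir143, with a difference of -1.69, are the pair known from smooth muscle. Mir181b-1 read 7.52 and 4.98, Mir218-1 read 8.38 and 6.11, and Mir199a-1 read 7.68 and 6.62. All of these named loci were under the floor in the KO-labelled library. With the lower side set to the floor, the folds were 1.61 for Mir145a, 1.8 for Mir143 and 1.13 for Mir181b-1. They were 1.27 for Mir199a-1 and 2.06 for Mir218-1, the only named locus still past 2-fold. In the RefSeq sequences below the seed, bases 2 to 8, is in capitals, and the 3 seeds differ from one another.
mmu-miR-181b-5p: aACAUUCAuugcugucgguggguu
mmu-miR-218-5p: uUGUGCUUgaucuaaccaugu
mmu-miR-199a-3p: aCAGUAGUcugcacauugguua
On build GRCm38.p6 they lie at chr1:137966650-137966673 on the plus strand, chr5:48223966-48223986 on the plus strand and chr9:21496498-21496519 on the minus strand. On the induced WT array the 3 loci read 5.21, 4.55 and 5.84, and in the KO-labelled DOX library 6.84, 7.48 and 6.75. Of these 6 values only Mir218-1 at 7.48 was above the floor. With the KO-labelled DOX library in place, 1 of all 97 measured loci was lower and 0 were higher, and the 1 was not among the 3 shown. Ptprc, which lies next to Mir181b-1 among measured genes, was lower as well, as given above.

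The genes with the widest differences were then followed across the other arrays. They were chosen by the deposited log2 differences of this pair, also where 1 value was under the floor, so their values in the pair itself are set by the choice. Of the 15 such higher genes, 0 were above the floor in the KO-labelled DOX library and 12 on the induced WT array. Pllp at 5.59, Sostdc1 at 4.33 and Tac2 at 4.49 were the exceptions on that array, and they read 9.39, 9.83 and 7.71 in the KO-labelled library without DOX. Podxl, a sialomucin gene, read 5.73 in WT and 9.68 in the KO-labelled library, and Tek, an angiopoietin receptor gene, read 6.43 and 9.88. The endothelial gene Pecam1 read 5.24 and 5.36, so Tek was not accompanied by this endothelial marker. Of the 15 lower genes chosen likewise, 7 belong to the macrophage list, and 6 were above the floor in the KO-labelled DOX library and 1 on the induced WT array. Gjb2, a gap junction gene, read 11.78 and 7.55, and Ch25h, a cholesterol hydroxylase gene, read 10.84 and 6.70.

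**Figure D4:**
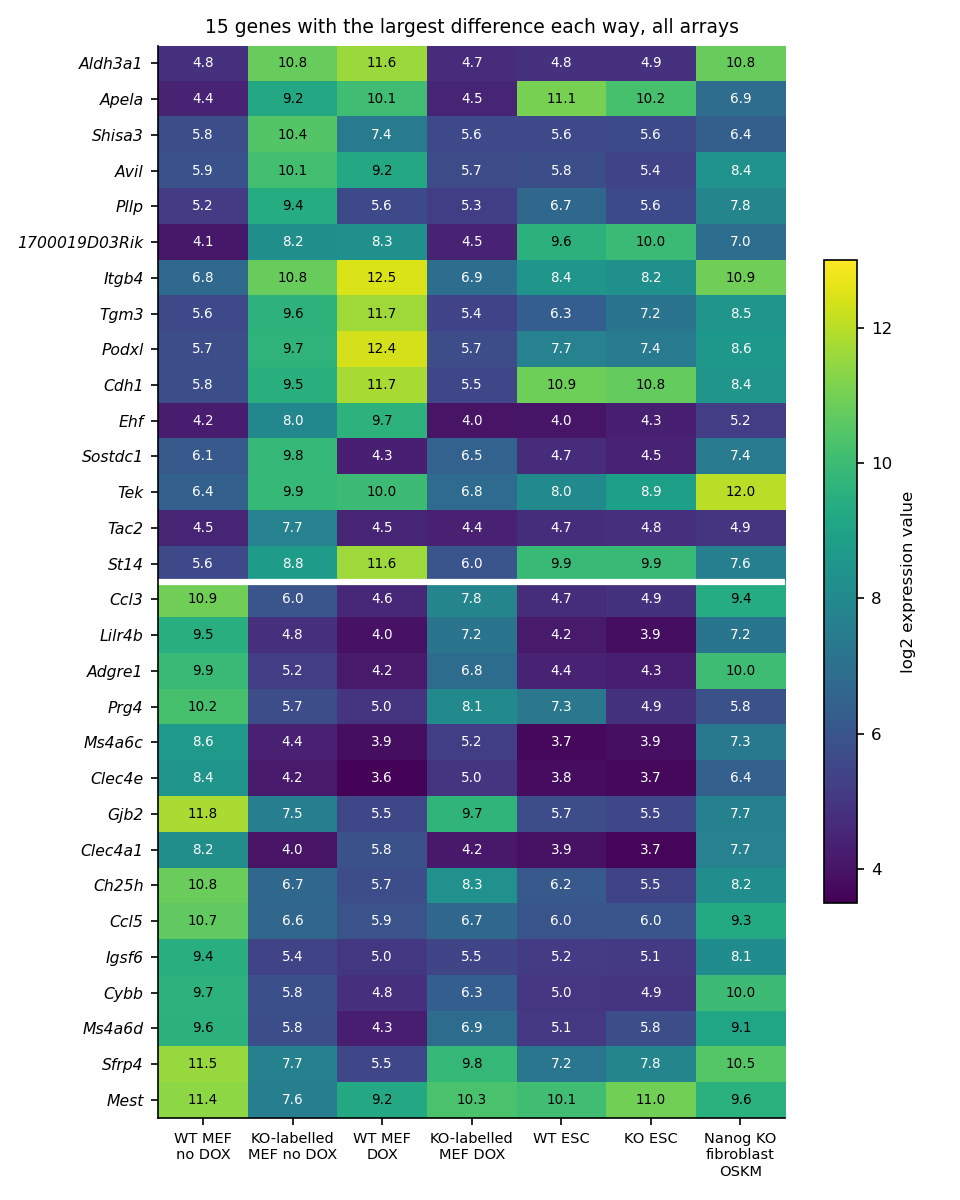
Log2 expression value (colour and printed number) of the 15 genes with the largest higher difference (upper block) and the 15 with the largest lower difference (lower block) in the library labelled Utx KO without DOX, on all 7 arrays (columns). The pair without DOX chose the genes, and on the other MEF arrays the upper block is below the floor of 7.34 in the KO-labelled DOX library while 12 of its 15 genes are above it in WT with DOX.

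The 466 higher and 882 lower genes were also read in the pairs that share no array with this one. In the DOX pair, 48 of the higher genes were 2-fold higher (10.3%) and 146 were lower (31.3%), beside 13.9% and 7.29% of all genes counted here. Of the lower genes, 321 were higher there (36.4%) and 64 lower (7.26%). In the ESC pair 83 of the 882 lower genes were lower (9.41%) and 6 higher, beside 2.69% and 0.238% of all genes counted, and the background in that pair is 3.18% lower and 0.651% higher. Of the 466 higher genes 2 were higher and 8 lower in ESCs. Across genes, which are not independent replicates, the differences correlated with those of the DOX pair at r = -0.31 (Spearman's rho -0.14, 8786 genes) and with those of the ESC pair at r = 0.16 (rho 0.06, 7693 genes).

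A handful of genes were past 2-fold in the same direction in all 3 KO-to-WT pairs. Lower in all were Kdm6a, Eif2s3y, Ptgs2, Slco2a1, Serpinb9b and Fxyd5, and higher in all was D17H6S56E-5. Ptgs2, the inducible cyclooxygenase gene, differed by -2.49 in this pair, -1.59 with DOX and -1.97 in ESCs. Slco2a1, a prostaglandin transporter gene, differed by -1.16, -2.34 and -1.09. Serpinb9b, a protease inhibitor gene, differed by -1.78 in this pair and -2.31 with DOX, and Fxyd5 by -1.01, -1.21 and -2.15. D17H6S56E-5 was higher by 1.12, 1.90 and 1.22. Ptgs2 and Slco2a1 both act in the prostaglandin pathway, and these 7 genes were picked by their values, so their shared direction is a description.

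Some differences lay side by side in the genome. Among 13552 measured genes in RefSeq order, 16 runs of at least 3 neighbours were lower, with 53 genes, and 4 were higher, with 13 genes. Whether this is more than genes in any order would give was not tested. The longest comprised Ccl5, Ccl9, Ccl6, Ccl3, Wfdc17 and Wfdc18, a chemokine and antiprotease cluster, with differences from -1.47 to -4.94. A lectin receptor run held Clec4a1, Clec4n, Clec4d and Clec4e, from -2.73 to -4.26, and the complement genes C1qa, C1qb and C1qc formed another, from -2.60 to -3.36. The longest higher run held Apobec1, Gdf3, Nanog and Slc2a3, from 1.62 to 3.10. The runs with Clec4 and C1q genes consist of genes on the macrophage and complement lists, so they repeat the values above.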

How the data were processed

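Log2 expression values were deposited, for which the submitters' processing notes name RMA and Affymetrix Expression Console. In RMA, background correction is followed by normalization across arrays and a summary per probe set, and no version or genome build is stated. The labels name a 3-prime labelling kit, whereas probe identifiers are of a gene array. Of 21811 rows, 14894 had 1 gene symbol in the platform annotation, 925 had several and 5992 were not listed. A gene with several rows (754 of 13562) was represented by that of highest mean across all 7 arrays.

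Samples were grouped by the labels. Differences are those of deposited values, KO-labelled minus WT. A gene counts as higher or lower when its deposited values differ 2-fold or more and its larger value exceeds the floor (7.34). For single genes, "at least" folds set a lower side under the floor to the floor. No test was run, and precision is limited by having 1 array each. The comparison and the 38 gene lists were chosen with earlier results of these data known, and 6 further lists (histone, microRNA loci, small nucleolar RNA, growth factor, SRF and YAP target, acute phase) after values were seen, so none is independent evidence. Named genes are the 15 largest differences each way, Kdm6a, Kdm6b, Y-linked, Xist and reprogramming genes, defining cell markers, and per list up to 5 members each way, the ends and those nearest 0. Other names, such as Acta2, Pcna, Mcm6, Knl1, Cenpe, Ezh2, Eed, Suz12, Sfrp1, Igf2, Dlk1, B2m and Hoxb3, were chosen after their values were seen.

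Promoter and microRNA sequences are from RefSeq (GRCm38.p6). Alternatives covered array scaling, the floor, the fold, the rows of a gene and the KO-labelled library. The software was matplotlib 3.10.9, scipy 1.17.1, pandas 2.3.3 and numpy 2.4.6 under Python 3.11.15, and the counting was tested on simulated data.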

Additional observations from a re-analysis of the deposited data

Results flagged for a closer look

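The contrasts below took opposite signs without and with DOX, between the library labelled KO and its WT array, with 1 array each, and the difference between the pairs was not tested. Pou5f1 was 3.06 higher in the KO-labelled library without DOX and differed by -7.48 with DOX. The epithelial list had a median difference of 0.60 without DOX and -3.58 with DOX. The macrophage list had medians of -2.62 and 1.37, the interferon-stimulated list -0.84 and 0.78, and the mesenchymal matrix list -0.62 and 2.97. The labels of both KO MEF libraries go against their Pou5f1 values, as described above, so the direction of each of these contrasts holds for the labels as deposited.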

How the results depend on the processing

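Counts of higher and lower genes were 298 and 566 with the floor at the 60th percentile (8.48), 166 and 311 at 3-fold, and 170 and 237 with the KO-labelled DOX library in place of the one without DOX. That library also moved the list medians to 0.51 (DNA replication), 0.46 (mitosis), -0.30 (interferon-stimulated), -1.74 (macrophage) and -0.06 (mesenchymal matrix), and turned the sign of the epithelial (-0.14) and pluripotency (-0.07) medians. Aligned array medians gave 0.73 for the epithelial and 0.91 for the mitosis list, and quantile normalization 0.74 and 0.90, with 29 mitosis genes higher in place of 19. With the floor at the 60th percentile applied to members, the epithelial median was 1.60 and the macrophage median -3.18. Medians over members above the floor, chosen after seeing the data, were 1.14 (epithelial) and 0.93 (pluripotency). Members pass a floor by their higher value, so these filtered medians can move outward by the choice alone. At the floor of 7.34, 18 epithelial members were above it in the KO-labelled library and 8 in WT. For macrophage members the numbers were 8 and 50.

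With the KO-labelled DOX library, 9 of 65 named genes were within 1.5-fold of their value, 45 moved further and 11 that were past 2-fold as reported changed sign: Pou5f1 (-3.08), Aldh3a1 (-0.12), Avil (-0.23), Cdh1 (-0.27), Ehf (-0.24), L1td1 (-0.28), Shisa3 (-0.19), Tac2 (-0.14), Tgm3 (-0.22), Abi3bp (0.04) and Cdh3 (0.72). Among those that moved further, Klf4 (-0.49) and Uty (0.27), under 2-fold as reported, changed sign too. All 65 stayed within 1.5-fold under aligned medians, quantile normalization and averaging of a gene's rows. The cause of these changes was not tested. No paired analysis was possible because each group has 1 array and the labels carry no replicate numbers. Values near the floor carry little signal over background, which limits the differences of genes low on 1 array.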

Other observations

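Several gene groups outside the lists above were read after values were seen, so their counts are descriptions. Of 26 histone genes, whose replication-dependent members are expressed in S phase, 8 were higher in the library labelled KO and 0 were lower, with a median difference of 0.59. H4c3 read 7.57 in WT and 9.34 in the KO-labelled library, H1f1 read 9.26 and 11.01, and H2bc18 read 8.62 and 10.29. H2bc4 differed by -0.98, within 2-fold. Histone genes have near-identical copies, so values of single copies are uncertain. Of 51 small nucleolar and Cajal body RNA genes 7 were higher and 0 lower, with a median of 0.08, and Snord104 read 10.60 and 12.63. With the KO-labelled DOX library in place, 4 histone genes were higher, with a median of 0.50, and 1 small nucleolar or Cajal body RNA gene was higher and 1 lower.

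Secreted growth factor genes were mostly on the lower side, with 14 of 40 lower, 0 higher and a median of -0.82. Inhba, the activin A subunit gene, read 11.92 in WT and 9.15 in the KO-labelled library, and Igf1 read 9.82 and 7.36. Fgf7, a fibroblast ligand for epithelial cells, read 11.34 and 9.48, and Vegfb was at 8.38 and 9.19. The KO-labelled DOX library gave 5 lower growth factor genes and a median of -0.21. Of 36 SRF and YAP target genes 12 were lower and 0 higher, with a median of -0.54, among them Ankrd1 at 10.66 and 6.96, while Ptpn14 read 9.92 and 10.79, and the KO-labelled DOX library gave 7 lower with a median of -0.24. Of 19 acute phase and prostaglandin genes 9 were lower and 1 higher, with a median of -1.13. Saa3, an acute phase apolipoprotein gene, read 10.18 and 6.90 and Hp, the haptoglobin gene, read 9.37 and 6.77, whereas Serpina3n was the higher member at 10.07 and 12.26. In the KO-labelled DOX library Saa3 read 10.40, Hp 9.43 and Serpina3n 12.07, so Saa3 and Hp were there near their values in WT without DOX and Serpina3n was not. That library gave 3 lower and 2 higher genes of the list, with a median of -0.03.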
